A study of Mus musculus with 32 samples.

Results

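The Ms4a genes encode small tetraspan membrane proteins of immune cells, and 9 of them were followed here in tumour-associated macrophages of the mouse: Ms4a3, Ms4a4a, Ms4a4b, Ms4a4c, Ms4a4d, Ms4a6b, Ms4a6c, Ms4a6d and Ms4a7. They were taken by name, from probe sets that the platform annotation gives to 1 gene symbol, and where a gene had several such probe sets the one of highest mean signal stood for it. The Mouse Gene 2.0 ST chip held all 9, among 22180 genes. The HT_MG-430_PM chip held 8, among 17097 genes, and Ms4a4a had no probe set of its own there. Genes entered a test when they exceeded the 40th percentile of an array's probe sets on enough arrays to fill the smallest group, which left out Ms4a3 on the HT_MG-430_PM chip and Ms4a4b on the Mouse Gene 2.0 ST chip.

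Several Ms4a proteins are known from other cells. Ms4a1 is the B cell protein CD20, Ms4a2 is the beta chain of the high-affinity IgE receptor, Ms4a3 is a gene of granulocyte and monocyte progenitors, and Ms4a4b is a T cell gene. In macrophages the family members act beside other receptors in the membrane, such as the fungal receptor dectin-1, encoded by Clec7a, and Ms4a7 and Ms4a4a are used as markers of mature tissue macrophages. Myd88 is the adaptor of most Toll-like receptors and of the interleukin-1 receptor family, and TNFR1, encoded by Tnfrsf1a, is the main receptor for tumour necrosis factor. Both feed into NF-kB, a group of transcription factors of inflammatory genes.

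Expression was measured in 3 experiments on 32 arrays in 12 groups, from 100 ng of RNA each. The first compared CD11b+ cells, enriched with magnetic beads, from spontaneous neuroblastomas of Th-MYCN transgenic mice (3 arrays) and from tumours of transplanted EG7 cells, a mouse thymoma line, in WT mice (3 arrays). The second took CD11b+ cells in the same way from EG7 tumours in WT and in Myd88-/- recipients (5 arrays each), where Myd88 is missing from all cells of the host. The third sorted EG7 tumours by flow cytometry into population A (CD11b+, Ly6G-, Ly6C+, MHCII-) and population C (CD11b+, Ly6C-, MHCII+), each from 4 kinds of recipient with 2 arrays per group: WT, TNFR1-/-, Myd88flox/flox with Tie2-Cre (Myd88 cKO), and TNFR1-/- with Myd88flox/flox and Tie2-Cre (double KO). Tie2-Cre acts in blood cells and endothelium. The genotypes are those of the recipients and the EG7 cells were transplanted into them, so the tumour cells themselves kept both genes in every EG7 group. No ages are given, and nothing in the labels ties each array to an animal of its own, so the p-values reflect scatter between samples that may be partly technical. Values are log2 signals, differences are in log2 units with their standard error after ±, and a difference was called when its limma p-value, adjusted by Benjamini-Hochberg over all genes tested in that comparison, was under 0.05.

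Myd88 itself followed the labels. All 8 sorted arrays with the floxed allele and Tie2-Cre lay below all 8 without, with a difference of -1.79 ± 0.19 in A, and Myd88 fell from a mean of 8.37 in WT to 7.62 in Myd88-/- recipients. Tnfrsf1a differed without TNFR1 by -0.34 ± 0.17 in A and -0.54 ± 0.17 in C, neither called. In A, array 2 of double KO read 8.20, between the WT arrays at 8.30 and 8.09. In C, array 2 of TNFR1-/- read 7.87, above array 2 of WT at 7.81. In each population, then, an array labelled TNFR1-/- did not stand below all those with the gene. The sources used here do not say whether the probe set of Tnfrsf1a lies in the deleted part. Of 20 mature macrophage genes 17 were lower in A than in C, beside 21.3% of all genes, and 12 of 16 monocyte genes were higher, beside 11.1%. The monocyte list includes Ly6c1 and Ly6c2, and the sort itself used Ly6C, so part of that count was fixed by the gate. Within that limit, most of the monocyte list read higher in A and most of the macrophage list in C. Genes of other cells were also higher in A than in C: 6 of 12 neutrophil genes, 6 of 7 genes of mast cells, basophils and eosinophils, 7 of 9 fibroblast genes and 6 of 12 genes of T lymphocytes and the EG7 line. In bulk RNA such as this, fewer cells of a type and less RNA per cell cannot be told apart.

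On mouse chromosome 19 the 21 Ms4a genes of the RefSeq table lie in a row with 1 other protein-coding gene, Gm8369, among them. Ms4a14, Ms4a7, Ms4a4a, Ms4a4c, Ms4a4b and Ms4a6c follow each other directly, and after Gm8369 come Ms4a6b, Ms4a4d, Ms4a6d, Ms4a2 and Ms4a3. RefSeq promoter windows of build GRCm38.p6 matched 8 of the 9 members, and none was matched for Ms4a6d. The 250 bases before the start of 5 members are shown, 5′ to 3′ on the strand of the gene: Ms4a4c, Ms4a6c and Ms4a6b because they fell together in Myd88-/- recipients, Ms4a4b because its window is the one most like that of Ms4a4c, and Ms4a7 because it moved apart from these. Capitals mark matches to the core of an NF-kB site, searched as GGG and CC with any 5 bases between them, or to AGGAAGT, bound by the myeloid factor PU.1, on either strand.
Ms4a4c: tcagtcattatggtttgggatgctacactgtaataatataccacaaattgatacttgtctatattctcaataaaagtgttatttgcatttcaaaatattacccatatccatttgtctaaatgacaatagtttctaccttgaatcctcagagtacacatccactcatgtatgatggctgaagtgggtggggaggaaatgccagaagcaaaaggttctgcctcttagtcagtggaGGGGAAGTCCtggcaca
Ms4a4b: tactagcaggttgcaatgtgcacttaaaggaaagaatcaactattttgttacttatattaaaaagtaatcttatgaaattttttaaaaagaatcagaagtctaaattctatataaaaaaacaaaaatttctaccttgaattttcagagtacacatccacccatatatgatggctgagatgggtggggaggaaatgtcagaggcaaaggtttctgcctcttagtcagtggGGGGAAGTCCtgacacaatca
Ms4a6c: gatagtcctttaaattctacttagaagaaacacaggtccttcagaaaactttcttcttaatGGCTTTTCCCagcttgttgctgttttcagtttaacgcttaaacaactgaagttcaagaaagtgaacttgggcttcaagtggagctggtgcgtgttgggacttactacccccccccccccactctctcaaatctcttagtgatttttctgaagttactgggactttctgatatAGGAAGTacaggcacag
Ms4a6b: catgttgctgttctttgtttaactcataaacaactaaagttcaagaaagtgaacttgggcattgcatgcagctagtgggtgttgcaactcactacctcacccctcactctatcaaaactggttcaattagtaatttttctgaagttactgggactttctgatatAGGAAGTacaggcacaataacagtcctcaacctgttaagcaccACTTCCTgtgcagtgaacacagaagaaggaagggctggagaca
Ms4a7: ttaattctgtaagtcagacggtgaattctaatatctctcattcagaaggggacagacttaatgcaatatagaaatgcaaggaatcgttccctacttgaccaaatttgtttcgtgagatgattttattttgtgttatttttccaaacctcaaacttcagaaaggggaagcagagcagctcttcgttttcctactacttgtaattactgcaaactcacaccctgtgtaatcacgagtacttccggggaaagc
The windows are chr19:11407411-11407660 for Ms4a4c, chr19:11443308-11443557 for Ms4a4b, chr19:11469118-11469367 for Ms4a6c and chr19:11518309-11518558 for Ms4a6b, all on the plus strand, and chr19:11336147-11336396 on the minus strand for Ms4a7. Aligned end to end, Ms4a4c and Ms4a4b had 192 of 271 positions identical (70.8%), where the other pairs of windows had 46.6% to 53%. How evenly this likeness is spread along the windows was not measured. Both held the NF-kB core on their own strand, 17 to 8 bases before the start in Ms4a4c and 21 to 12 in Ms4a4b. Ms4a6c and Ms4a6b shared a stretch of 182 aligned positions with 83.5% identical, including an unbroken run of 48 identical bases that holds AGGAAGT. The match lay 17 to 11 bases before the start in Ms4a6c and 86 to 80 in Ms4a6b. Ms4a6b held a second copy on the opposite strand 43 to 37 bases before the start, and Ms4a6c an NF-kB core on the opposite strand at 189 to 180. The window of Ms4a7 held no match, nor did that of its second start. Of the windows not shown, Ms4a4a held the NF-kB core on both strands, at 247 to 238 and 246 to 237 bases before the start, and Ms4a4d held it at 71 to 62 and, on the opposite strand, 84 to 75. Ms4a3 held no match. In Myd88-/- recipients Ms4a4c and Ms4a6c, which held the core, were called lower, as was Ms4a6b, which held none. Ms4a4b and Ms4a4d held it and were not called there, and Ms4a4a had no probe set of its own there. The part of the core in these differences was not tested. The interferon element, searched as GAAA and GAAA with any 2 bases between them, the STAT element TTCNNNGAA and the AP-1 element TGACTCA were searched on both strands too and were found in none of the member windows. No match to one motif overlapped a match to another. Of 32851 windows of the same length, 45.8% held the NF-kB core, 7.69% AGGAAGT, 2.98% the interferon element, 7.02% the STAT element and 4.46% the AP-1 element. A match describes these letters and does not show that a factor binds there.

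The sorted cells showed which members go with which population. Ms4a7, Ms4a6d and Ms4a4a, which are genes of mature macrophages, were higher in population C, and Ms4a7 stood far apart from the rest. Ms4a4d was slightly higher in A on average over the genotypes, but not in WT recipients. Averaged over the 4 host genotypes, 3 of the 8 members tested were lower in A and 1 was higher, beside 21.3% and 11.1% of all 16524 genes tested, so that 4 of 8 called members stood beside 32.3% of all genes. The members' median difference was -0.24, against 0.02 for all genes. The gate itself separates the populations by Ly6C and MHC class II, which are not Ms4a genes.

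Ms4a7 read 7.10 and 6.42 in A and 10.28 and 10.50 in C of WT recipients. In TNFR1-/- recipients it read 6.56 and 5.79 in A and 10.09 and 9.67 in C. In Myd88 cKO recipients the values were 9.34 and 9.76 in A and 10.95 and 10.46 in C, and in double KO recipients 7.70 and 7.23 in A and 9.45 and 9.67 in C. Within each genotype both A arrays lay below both C arrays, a separation found in 47.8% of all genes in WT, 59.4% in TNFR1-/-, 51.5% in Myd88 cKO and 48.4% in double KO, but A of Myd88 cKO reached the level of C of double KO. The mean difference between A and C was -2.65 ± 0.15 (n = 8 each, limma adjusted p = 5.95e-08), a signal 6.26-fold lower in A and the 3rd largest fall of the 16524 genes. By genotype it was -3.63 ± 0.29 in WT (adjusted p = 2.0e-05), -3.71 ± 0.29 in TNFR1-/- (9.61e-06), -1.16 ± 0.29 in Myd88 cKO (0.0586) and -2.10 ± 0.29 in double KO (9.9e-04), in fits by limma. Ms4a7 was thus called in 3 of the 4 genotypes, where 13.5%, 12.6% and 5.46% of all genes were called, and in Myd88 cKO, where 1.97% were, it missed the threshold. That last result became a call under 8 of 22 other settings. It was called with only its own 2 groups in the fit (adjusted p = 0.0194), with the replicate numbers as a block (0.0487), and without array 1 or 2 of A from WT (0.032 and 0.0319), from TNFR1-/- (0.042 and 0.0418) or from double KO (0.0456 and 0.0458).

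**Figure D1:**
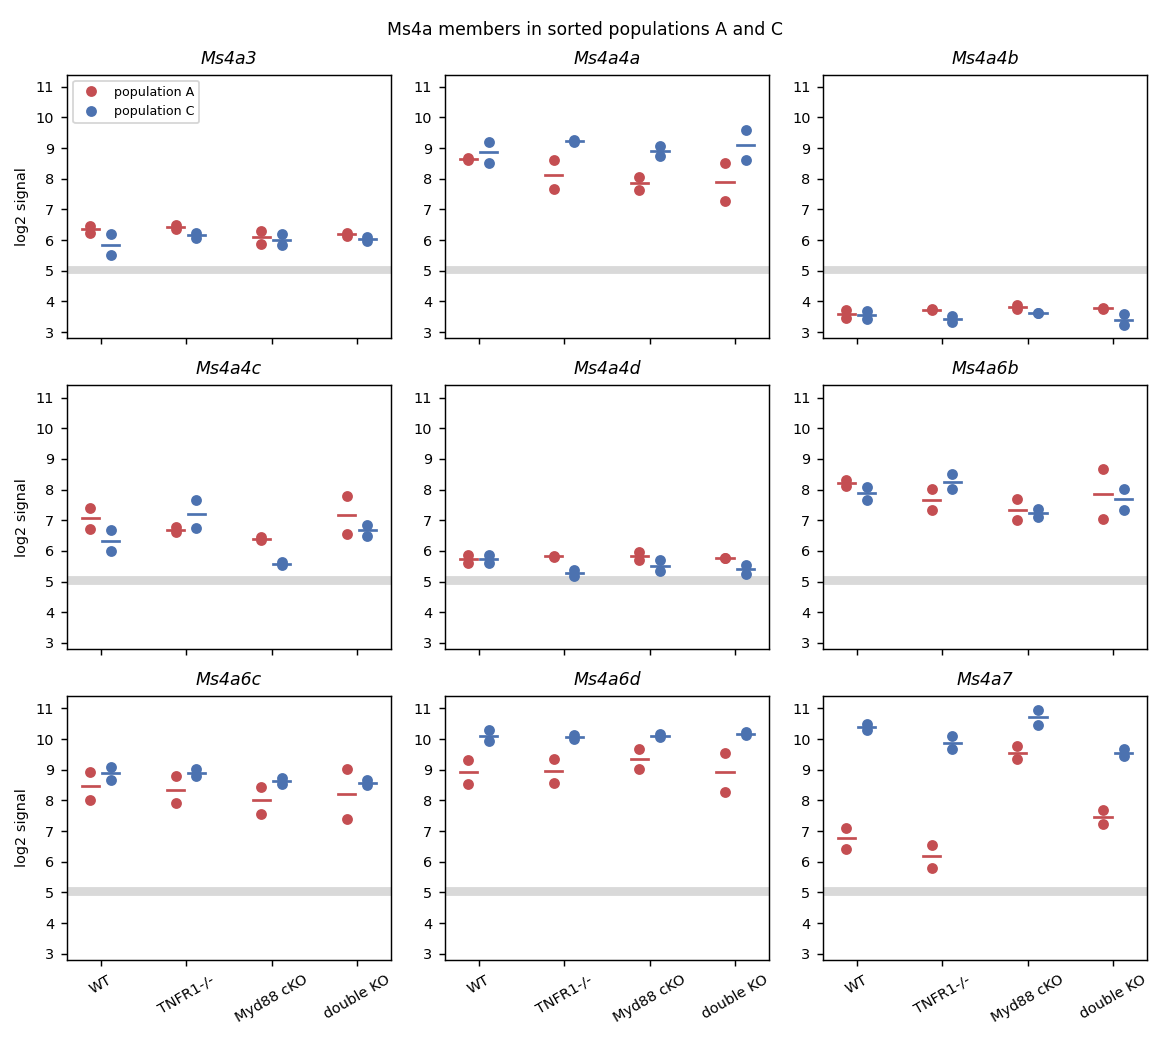
Log2 signal (vertical axis) of the 9 members in the 16 sorted arrays, by host genotype (horizontal axis), with population A in red and C in blue; each point is 1 array, short bars are the means of 2 arrays, and the grey band is the range of the arrays' 40th percentiles. Ms4a7 lies between 5.79 and 7.70 in A except in Myd88 cKO, where it is 9.34 and 9.76, and Ms4a4b lies below the band on every array.

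Ms4a6d, another macrophage member, was the only one of the 8 whose A and C arrays did not overlap at all, as was true of 5.98% of all genes. In A it read 8.53 and 9.31 in WT, 9.34 and 8.56 in TNFR1-/-, 9.01 and 9.66 in Myd88 cKO and 8.28 and 9.56 in double KO. In C the values were 10.28 and 9.93, 10.13 and 10.01, 10.15 and 10.06, and 10.12 and 10.22 in the same order. The arrays of C agreed closely with each other whereas those of A spread over more than 1 log2 unit. The mean difference was -1.08 ± 0.19 (n = 8 each, limma adjusted p = 5.08e-04). In WT alone it was -1.19 ± 0.37 and just called (limma adjusted p = 0.049), a call lost under 17 of 22 other settings, whose adjusted p ran from 0.0169 to 0.292. Among these, repeated quantile normalization reduced the difference to -0.81 (limma adjusted p = 0.272). The call was also lost without array 1 or 2 of C from WT (differences of -1.01 and -1.36) and without array 1 of A from WT (-0.80). It was lost as well without either array of C from each other genotype and without either array of A from Myd88 cKO (-1.19 in each).

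Ms4a4a read 8.69 and 8.62 in A and 9.20 and 8.53 in C of WT recipients, so that the groups overlapped there. In the other genotypes A lay lower: 8.60 and 7.66 against 9.28 and 9.19 in TNFR1-/-, 7.64 and 8.06 against 9.08 and 8.74 in Myd88 cKO, and 7.28 and 8.53 against 8.61 and 9.60 in double KO. The mean difference was -0.89 ± 0.20 (n = 8 each, limma adjusted p = 0.00384), made up of -0.21 ± 0.41 in WT and of -1.11, -1.06 and -1.20 in the others. No single genotype was called for Ms4a4a (adjusted p from 0.0937 to 0.775). The A minus C difference of Ms4a4a changed by -0.47 ± 0.41 with Myd88 loss (limma adjusted p = 0.732) and by -0.52 ± 0.41 with TNFR1 loss (0.888), neither called. Ms4a4d differed the other way, by 0.31 ± 0.09 (limma adjusted p = 0.0142), from signals of 5.60 to 5.96 in A and 5.17 to 5.87 in C that lie just above the filter. In WT its difference was 0, with a mean of 5.74 in both populations. It was 0.55 in TNFR1-/-, 0.32 in Myd88 cKO and 0.385 in double KO (limma adjusted p = 0.0564, 0.407 and 0.280). No single genotype was called for Ms4a4d either.

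The other members were not called between the populations. Ms4a6b differed by 0.01 ± 0.21 (95% interval -0.45 to 0.47), with 7.0 to 8.67 in A and 7.10 to 8.51 in C. Ms4a6c differed by -0.49 ± 0.23 (limma adjusted p = 0.113), Ms4a4c by 0.38 ± 0.19 (0.134) and Ms4a3 by 0.25 ± 0.11 (0.0934). Each of these 3 turned into a call when 1 array was left out: Ms4a6c without array 2 of A from double KO (-0.70, adjusted p = 0.00861), Ms4a4c without array 1 of the same group (0.54, 0.0194), and Ms4a3 without array 2 of C from WT (0.34, 0.0159). Ms4a4b, the T cell member, read 3.23 to 3.89 on all 16 arrays, under the arrays' 40th percentiles of 4.92 to 5.14.

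**Figure D2:**
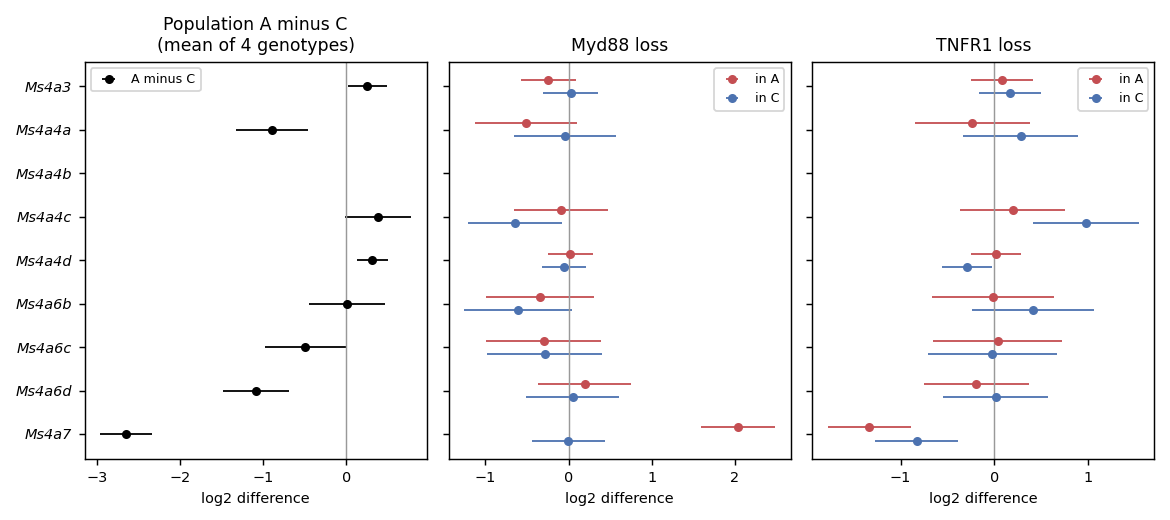
Log2 differences (horizontal axis) with 95% intervals for the members (vertical axis): A minus C over 4 genotypes in black, and the effects of Myd88 loss and TNFR1 loss in A (red) and C (blue), each over 4 arrays against 4. Ms4a7 lies at -2.65, 2.04 and -1.34 in the black and red points, and its effect of Myd88 loss in C lies at 0; Ms4a4b was below the filter and has no point.

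The genotypes asked which members need Myd88 or TNFR1. Loss of Myd88 raised Ms4a7 in population A and left no other member called, and in population C it moved no member past the test. On average over both states of Myd88, loss of TNFR1 lowered Ms4a7 in A, mostly where Myd88 was absent too. That call was lost under 9 of 22 other settings. In C Ms4a7 was also lower without TNFR1, and the difference missed the threshold. Each effect was estimated over both states of the other gene, with 4 arrays against 4, so that the double KO arrays enter both.

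In A, the 4 arrays that lack Myd88 read 9.34, 9.76, 7.70 and 7.23 for Ms4a7 and the 4 arrays that have it 7.10, 6.42, 6.56 and 5.79. The groups did not overlap, as was true of 7.38% of all genes. The difference was 2.04 ± 0.21 (95% interval 1.60 to 2.48, limma adjusted p = 5.62e-04), a 4.11-fold higher signal and the 11th largest rise of 16524 genes, and it was called under all 22 other settings. Of the 8 members tested 1 was higher and 0 were lower, beside 4.19% and 0.478% of all genes. The rise was 2.79 ± 0.29 where TNFR1 was present (Myd88 cKO against WT, limma adjusted p = 8.22e-04, beside 3.18% of genes called) and 1.29 where it was absent. The other members ranged from -0.52 ± 0.29 for Ms4a4a to 0.19 ± 0.26 for Ms4a6d, with adjusted p from 0.313 to 0.941.

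In C, the Ms4a7 difference with Myd88 loss was -0.00 ± 0.21 (95% interval -0.44 to 0.44, limma adjusted p = 0.999). No member was called there, nor were more than 0.0182% of all genes. At an unadjusted p under 0.05 stood 1 member, Ms4a4c, at -0.64 ± 0.26, beside 4.67% of all genes. Ms4a6b differed by -0.61 ± 0.30 and Ms4a6c by -0.29 ± 0.32, both at an adjusted p of 0.998. The difference between the Myd88 effects in A and in C was 2.04 ± 0.29 for Ms4a7. It had the smallest p-value of all 16524 genes, but its limma adjusted p of 0.064 missed the threshold, as did every gene in this comparison (0 called), while 9.27% of genes had an unadjusted p under 0.05. The adjusted p ran from 0.00793 to 0.255 over 21 other settings. It was a call without array 1 or 2 of A from WT (2.21 and 1.87, adjusted p = 0.0226 and 0.0444), without array 1 of A from TNFR1-/- (2.23, 0.00793), without array 1 of A from Myd88 cKO (2.15, 0.0369) and without array 2 of A from double KO (2.16, 0.0488).

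Without TNFR1, Ms4a7 in A read 6.56, 5.79, 7.70 and 7.23, against 7.10, 6.42, 9.34 and 9.76 with it. The groups overlapped, with the arrays that also lack Myd88 the higher in each. The difference was -1.34 ± 0.21 (limma adjusted p = 0.0271), a 2.52-fold lower signal. It was -0.585 where Myd88 was present (TNFR1-/- against WT, limma adjusted p = 0.299, not called) and -2.085 where Myd88 was absent. Of the 8 members 1 was lower, beside 0.139% of all genes. The call was lost under 9 of 22 other settings, with adjusted p from 0.00443 to 0.338. It was lost with only the 4 A groups in the fit (0.338), and without array 1 of A from WT (-1.17, adjusted p = 0.0743), array 2 of A from TNFR1-/- (-1.14, 0.154), array 2 of A from Myd88 cKO (-1.23, 0.175) or array 1 of A from double KO (-1.45, 0.053). It was also lost without any 1 of the 4 arrays of C from Myd88 cKO or double KO, where the difference stayed and the adjusted p was 0.056 to 0.0566.

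In C, the arrays without TNFR1 read 10.09, 9.67, 9.45 and 9.67 for Ms4a7 and those with it 10.28, 10.50, 10.95 and 10.46. The groups did not overlap, as was true of 6.38% of all genes, yet the difference of -0.83 ± 0.21 missed the threshold (limma adjusted p = 0.0908). It was called with only the 4 C groups in the fit (0.005) and without array 1 or 2 of A from WT (0.0481 and 0.0483). Ms4a4c, a monocyte member, stood higher without TNFR1 in C, at 0.98 ± 0.26 (limma adjusted p = 0.130). It read 6.76, 7.65, 6.86 and 6.50 without TNFR1 and 6.68, 6.0, 5.63 and 5.54 with it, and the groups overlapped. It was called with only the C groups in the fit (0.0152) and without array 1 or 2 of A from double KO (0.0336 and 0.0337). No member was called by limma in this comparison, beside 1.09% of all genes, and 3 had an unadjusted p under 0.05, beside 7.35%. The TNFR1 effects in A and C differed by -0.51 ± 0.29 for Ms4a7 (limma adjusted p = 0.827, beside 0.103% of genes called).

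Double loss gave an intermediate level of Ms4a7 in A. The 2 double KO arrays, at 7.70 and 7.23, lay above both WT arrays, as 44.8% of all genes separated these groups, and below both Myd88 cKO arrays. Their difference from WT was 0.71 ± 0.29 (limma adjusted p = 0.153, beside 5.75% of genes called), which was called without array 1 of A from WT (1.04, 0.0487). Over both populations the double loss differed from the sum of the single losses by -1.07 ± 0.29, which was not called (limma adjusted p = 0.288, beside 0.0605% of genes called). In order of mean, Ms4a7 stood at 10.71 ± 0.35 (SD) in C of Myd88 cKO, 10.39 ± 0.16 in C of WT, 9.88 ± 0.30 in C of TNFR1-/-, 9.56 ± 0.16 in C of double KO, 9.55 ± 0.30 in A of Myd88 cKO, 7.47 ± 0.33 in A of double KO, 6.76 ± 0.48 in A of WT and 6.18 ± 0.54 in A of TNFR1-/- (n = 2 each). Arrays of neighbouring groups overlapped or met between C of Myd88 cKO and C of WT, C of TNFR1-/- and C of double KO, C of double KO and A of Myd88 cKO, and A of WT and A of TNFR1-/-. They did not overlap at the other steps, of which the largest, 2.09, lay between A of Myd88 cKO and A of double KO.

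Ms4a14, the gene next to Ms4a7 on the same strand, was the gene whose signal was most like that of Ms4a7 over the 16 sorted arrays (Pearson r = 0.981 among 14840 named genes). Plxna1, a semaphorin receptor (0.977), and Trem2, a lipid receptor of macrophages (0.977), came next, as a description of arrays that share the split into A and C. In A, Ms4a14 read 4.83 and 4.87 in WT, 4.94 and 4.21 in TNFR1-/-, 6.33 and 7.0 in Myd88 cKO and 5.21 and 4.97 in double KO. In C the values were 7.51 and 7.60, 7.48 and 6.57, 8.35 and 7.79, and 6.93 and 7.12 in the same order. Like Ms4a7, Ms4a14 was high in all C arrays and, among A arrays, in Myd88 cKO. In A of WT and of TNFR1-/-, and on array 2 of double KO, it lay under the array's 40th percentile, so it passed the filter through the groups where it is high, and its fitted differences are no measure of a level there. It differed by -2.12 ± 0.15 between A and C (limma adjusted p = 5.37e-07), by 1.17 ± 0.22 with Myd88 loss in A (limma adjusted p = 0.00985) and by -0.93 ± 0.22 with TNFR1 loss in A (limma adjusted p = 0.0957). Ms4a4a, the neighbour of Ms4a7 on its other side and on the opposite strand, did not rise with Myd88 loss in A, at -0.52 ± 0.29.

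**Figure D3:**
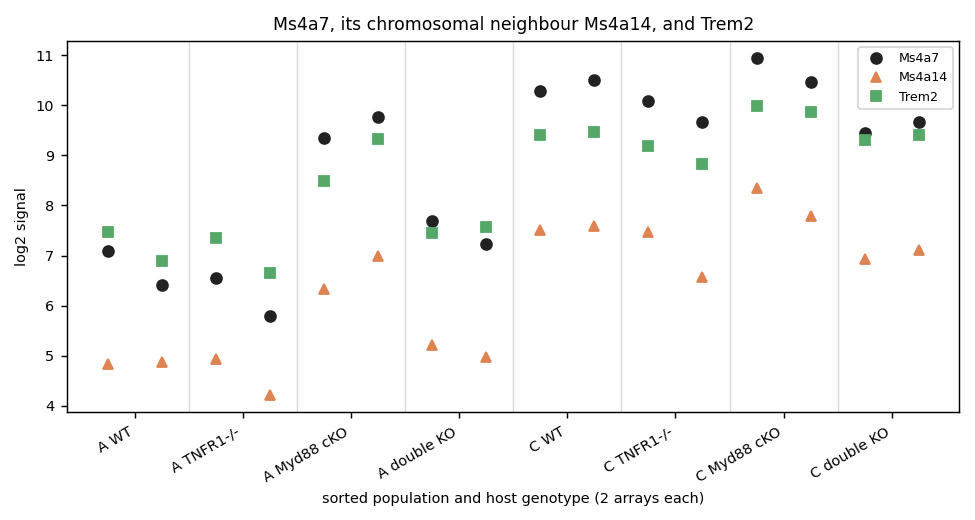
Log2 signal (vertical axis) of Ms4a7 (circles), its chromosomal neighbour Ms4a14 (triangles) and Trem2 (squares) on each of the 16 sorted arrays, grouped by population and host genotype (horizontal axis, 2 arrays each). In A of Myd88 cKO all 3 genes lie above their values in the other A groups, with Ms4a14 at 6.33 and 7.0 against 4.21 to 5.21.

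The mature macrophage list moved together with Ms4a7. Its mean log2 signal was 7.27 and 7.51 in A of WT, 6.77 to 7.32 in TNFR1-/-, 8.26 to 8.72 in Myd88 cKO and 7.66 in double KO, against 8.88 to 9.26 in C. With Myd88 loss in A, 9 of its 20 genes rose, beside 4.19% of all genes, with a median difference of 0.59 against 0.01 for all genes. With TNFR1 loss in A, 3 of 20 fell, beside 0.139% of all genes, with a median of -0.71 against -0.02. The complement gene C1qc (1.91 ± 0.24), the lysosomal glycoprotein gene Gpnmb (2.11 ± 0.27) and the folate receptor gene Folr2 (1.86 ± 0.16) rose about as much as Ms4a7 with Myd88 loss in A, all called. No gene of the list was under the 40th percentile on every sorted array. Trem2 belongs to this list as well as to the partners. The part of these shifts in the result for Ms4a7 was not tested.

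The rest of the family and its partners were fixed as lists. Of the 13 other family genes, 10 were tested in the sorted cells, and 4 were lower and 1 higher in A, beside 21.3% and 11.1% of all genes. Tmem176a (-1.55 ± 0.18) and Tmem176b (-1.25 ± 0.20), distant relatives of the Ms4a proteins, were lower in A, as was Ms4a8a (-0.61 ± 0.15). The remaining gene of the 4 was Ms4a14, which passed the filter through the groups where it is high, so its place in this count carries that limit. Ms4a2, the IgE receptor subunit, was higher in A by 0.21 ± 0.07 at a signal near the filter. Of 8 protein partners 4 were lower in A, beside the same 21.3%: Trem2 (-1.78 ± 0.14), Clec7a (-1.06 ± 0.12), the IgG receptor Fcgr3 (-0.64 ± 0.10) and the shared receptor chain Fcer1g (-0.25 ± 0.07). Tnfrsf18, the T cell receptor GITR, was higher (0.76 ± 0.21). With Myd88 loss in A, Trem2 (1.11 ± 0.19) and Clec7a (0.80 ± 0.17) rose together with Ms4a7, and 0 of the 8 partners were called by limma for TNFR1 loss in A. Clec7a, Trem2 and Kit had an unadjusted p under 0.05 there, as did 13.8% of all genes.

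In the sorted arrays 5 members varied together, a set picked after these values were seen. Once each group's mean was removed, the arrays' deviations of Ms4a4a, Ms4a4c, Ms4a6b, Ms4a6c and Ms4a6d correlated with r of 0.46 to 0.98 in all 10 pairs over the 16 sorted arrays, with Ms4a6c and Ms4a6d the closest. Ms4a7 correlated with the 7 other tested members at -0.56 to 0.22. With 2 arrays per group, these deviations describe which array of a pair was higher. In A of double KO, for example, array 2 was higher than array 1 for Ms4a4a, Ms4a4c, Ms4a6b, Ms4a6c and Ms4a6d, and lower for Ms4a7. The other experiments, where Ms4a4a had no probe set of its own, showed this grouping in part. In the Myd88 experiment the same measure was -0.28, -0.53 and -0.16 for Ms4a4c with Ms4a6b, Ms4a6c and Ms4a6d. There it was 0.48 for Ms4a6b with Ms4a6c, 0.47 for Ms4a6b with Ms4a6d, -0.16 for Ms4a6c with Ms4a6d, and 0.59 for Ms4a6d with Ms4a7. In the tumour models it was 0.97 for Ms4a6b with Ms4a6c, and 0.98 for Ms4a6d with each of these. For Ms4a4c with Ms4a6b, Ms4a6c and Ms4a6d it was 0.34, 0.54 and 0.39. In the tumour models Ms4a7 correlated at 0.32 to 0.73 with Ms4a4b, Ms4a4c, Ms4a6b, Ms4a6c and Ms4a6d. The genes most like each member over the sorted arrays were Galk2, Irf8 and Ly86 for Ms4a4a (r of 0.897 to 0.915), the interferon-inducible genes Ifi205, Slfn5 and Gbp5 for Ms4a6b (0.917 to 0.924), Sirpb1a, Ifi203-ps and Rin2 for Ms4a6c (0.862 to 0.927), and Rin2, Sap30 and Tpm4 for Ms4a6d (0.944 to 0.948). For Ms4a4c they were Btn2a2, Snora78 and Olfr742 (0.817 to 0.821), and for Ms4a4d Plpp1, Rps23rg1 and Osgin1 (0.836 to 0.880). For Ms4a3 they were Olfr1132, Ang6 and Olfr1348 (0.879 to 0.915), of which Olfr1132 and Olfr1348 are olfactory receptor genes. How far the Ms4a3 signal stands above background was not tested.

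In CD11b+ cells of whole EG7 tumours, 3 members fell without Myd88. Ms4a4c, Ms4a6c and Ms4a6b, whose promoter windows are shown above, were lower in Myd88-/- recipients, and the differences of Ms4a7 and Ms4a6d were near 0 and not called. This made 3 lower and 0 higher of 7 members tested, beside 1.18% and 0.26% of the 11915 genes tested. In the same 3 members the groups did not overlap, as was true of 3.03% of all genes. The median difference was -0.34 for the members and 0.01 for all genes.

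Ms4a4c read 8.79, 8.59, 8.76, 8.00 and 8.52 in WT and 7.39, 7.66, 7.33, 7.57 and 7.64 in Myd88-/- recipients. Every WT array lay above every Myd88-/- array. The difference was -1.01 ± 0.14 (n = 5 each, limma adjusted p = 0.00199), a 2.02-fold lower signal, called under all 15 other settings. Its probe set is of the type whose probes may also match other transcripts, and how much of the signal that concerns was not tested.

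Ms4a6c read 9.39, 9.34, 9.35, 9.46 and 9.32 in WT against 8.92, 8.96, 9.05, 8.99 and 8.82, lower by -0.42 ± 0.07 (limma adjusted p = 0.00991, n = 5 each). Ms4a6b read 9.68, 9.57, 9.74, 9.73 and 9.77 against 9.28, 9.39, 9.52, 9.18 and 9.22, lower by -0.38 ± 0.08 (limma adjusted p = 0.0442, n = 5 each). Both shifts were small, and the arrays of each group stood close together. The call of Ms4a6b was lost under 11 of 15 other settings, with adjusted p from 0.0143 to 0.132: with a replicate block (0.109), with a repeated quantile normalization (0.0651), and without any 1 of the 10 arrays other than array 3 of Myd88-/- recipients, where the difference was -0.35 to -0.41. A second probe set of Ms4a6b was lower by -0.62. The call of Ms4a6c was lost when its probe sets were averaged (-0.18, adjusted p = 0.422), since its second probe set, at means of 2.90 and 2.95, was above the 40th percentile on 8 of 10 arrays and differed by 0.06.

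**Figure D4:**
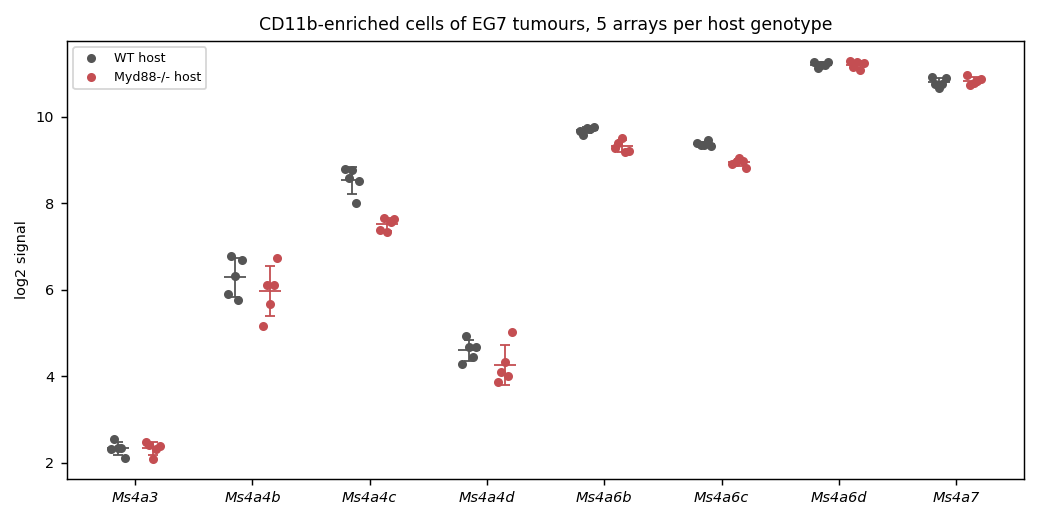
Log2 signal (vertical axis) of the 8 members on the HT_MG-430_PM chip (horizontal axis) in CD11b+ cells of EG7 tumours from WT (grey) and Myd88-/- recipients (red); points are arrays, 5 per group, and bars give the mean ± SD. In Ms4a4c, Ms4a6b and Ms4a6c the groups do not overlap, with Ms4a4c at 8.00 to 8.79 in WT and 7.33 to 7.66 in Myd88-/-.

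Ms4a7 read 10.67 to 10.93 in WT, with a median of 10.77, and 10.73 to 10.96 in Myd88-/- recipients, with a median of 10.82. The difference was 0.03 ± 0.08 (95% interval -0.14 to 0.20, limma adjusted p = 0.925), with the groups overlapping throughout. Ms4a6d stood at 11.21 in both groups (difference 0.00 ± 0.07). Ms4a4b (-0.33 ± 0.27, limma adjusted p = 0.700) and Ms4a4d (-0.34 ± 0.20, 0.550) overlapped between groups. Ms4a3 read 2.09 to 2.56 and was under the filter. The sorted and unsorted cells came from different chips and from different knockouts, Myd88 cKO in one and Myd88-/- in the other, so the experiments were not compared in a test.

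Monocyte markers moved with the 3 members that fell. The mean signal of the monocyte list was 7.77 to 8.03 in WT and 7.43 to 7.58 in Myd88-/- recipients, and 7 of 16 genes fell, among them Ly6c1 (-0.82 ± 0.10), Plac8 (-0.81 ± 0.15) and Treml4 (-0.99 ± 0.13). Of 18 macrophage genes 0 were called (median 0.02), at a list mean of 8.95 to 9.05 in WT and 8.89 to 9.07 in Myd88-/-. Of 15 Toll-like receptor targets 12 fell (median -0.95), and of 16 type I interferon genes 1 fell, Usp18 (-0.89 ± 0.17), with a list mean of 5.95 to 7.03 in WT and 5.94 to 6.46 in Myd88-/-. The WT array with the lowest interferon mean, 5.95, was array 4, which also had the lowest Ms4a4c. Of 10 neutrophil genes 3 fell. All of these counts of falls stood beside 1.18% of all genes. Each list had all of its genes above the 40th percentile on at least 1 array, apart from the macrophage gene Timd4. The part of these lists in the falls of Ms4a4c, Ms4a6c and Ms4a6b was not tested.

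Of the other family genes, Tmem176a and Tmem176b fell as far as Ms4a4c, by -0.98 ± 0.15 and -0.996 ± 0.13 (limma adjusted p = 0.00548 and 0.00175). In all 2 of 5 tested were called, both lower, beside 1.18% of all genes. Ms4a8a read 7.02, 7.58, 7.46, 7.88 and 6.52 in WT against 6.96, 6.70, 6.60, 5.88 and 5.61, a difference of -0.94 ± 0.28 that was not called (limma adjusted p = 0.152). Of the 8 protein partners 0 were called, with Trem2 at 0.37 ± 0.12 (limma adjusted p = 0.179) and Clec7a at 0.21 ± 0.09. The genes most like Ms4a4c over these 10 arrays were Cflar, an inhibitor of death receptor signalling, Ifitm3 and Acod1 (r of 0.974 or above), those most like Ms4a6c were Lars2, Ciapin1 and Il23a (0.959 to 0.962), and those most like Ms4a4b were Ifng, Lrrfip2 and Gzmb (0.908 to 0.922), of which Ifng and Gzmb are genes of T and natural killer cells. These arrays share the split into WT and Myd88-/-.

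Between tumour models no member was called. In CD11b+ cells of neuroblastoma against EG7 tumours, 0 of 7 members passed the test, and 0 had an unadjusted p under 0.05, beside 14.7% and 30.1% of the 12577 genes tested by limma. The probe set used for Ms4a7 was the steadiest, at 11.49, 11.57 and 11.50 in neuroblastoma and 11.55, 11.45 and 11.52 in EG7, a difference of 0.01 ± 0.13 (95% interval -0.30 to 0.33). Ms4a6d read 12.14, 12.21 and 11.45 against 12.18, 11.97 and 12.07. For Ms4a6c the neuroblastoma arrays gave 10.81, 11.21 and 9.57 and the EG7 arrays 10.63, 10.41 and 10.63, and its second probe set differed by 2.03 where the first differed by -0.03. The second probe set of Ms4a7, above the 40th percentile on 4 of 6 arrays, differed by 0.71, and that of Ms4a6b by 0.94 where the first differed by 0.45.

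The neuroblastoma arrays differed among themselves far more than the EG7 arrays did. Signals of Ms4a4c were 7.72, 11.84 and 8.48 against 9.31, 9.60 and 9.52 in EG7. Those of Ms4a4b were 4.64, 8.62 and 4.47 against 5.97, 5.40 and 5.85. In both genes array 2 of neuroblastoma lay above all EG7 arrays and arrays 1 and 3 lay below them. The same array had a mean of 9.32 over the type I interferon list, where the other neuroblastoma arrays had 5.72 and 6.72 and EG7 6.86 to 7.01, and 6.51 over the natural killer list, against 3.17 and 4.09, and 4.39 to 4.57 in EG7. Without it, Ms4a4c was lower in neuroblastoma by -1.38 (limma adjusted p = 0.0182) and Ms4a4b by -1.19 ± 0.22 (limma adjusted p = 0.0175), where it stood at 0.17 ± 1.07 with all arrays. The part of interferon genes or natural killer cells in these values was not tested.

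Ms4a4d was high on array 1 of neuroblastoma, with 9.39, 7.38 and 6.56 against 6.25, 6.36 and 6.53. It was the 1 member whose groups did not overlap, as was true of 36.1% of all genes, and its difference of 1.40 ± 0.67 was not called (limma adjusted p = 0.216). It was 0.59 without array 1 of neuroblastoma and 2.00 without array 3 (limma adjusted p = 0.256 and 0.0995). In neuroblastoma 6 of 8 endothelial genes and 4 of 8 fibroblast genes were higher, with endothelial means of 7.96 to 9.06 against 6.61 to 7.22, and 8 of 12 genes of T lymphocytes and the EG7 line were lower, at 4.13 to 5.25 against 7.28 to 7.57. These counts stood beside 14.7% of all genes called in either direction. Ms4a6b read 11.85, 11.87 and 10.23 against 10.95, 10.80 and 10.84, and it was called only without array 3 of neuroblastoma (0.997, limma adjusted p = 0.0196). Ms4a3 read 3.15, 3.36 and 3.37 against 4.56, 3.35 and 3.43 and was under the filter. Of the partners, Kit, the stem cell factor receptor, was higher in neuroblastoma (1.16 ± 0.30, limma adjusted p = 0.0495), and of 4 other family genes tested 0 were called.

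**Figure D5:**
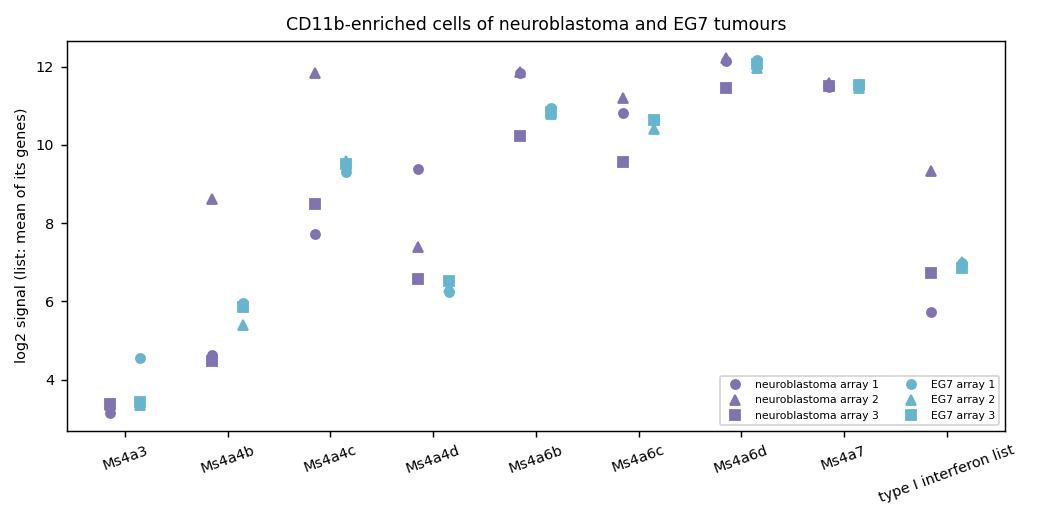
Log2 signal (vertical axis) of the 8 members and mean of the type I interferon list (horizontal axis) in CD11b+ cells of neuroblastomas (purple) and EG7 tumours (blue), with a marker shape per array number, which does not pair the arrays. Neuroblastoma array 2 lies highest for Ms4a4c, at 11.84, Ms4a4b, at 8.62, and the interferon list, at 9.32, whereas Ms4a7 lies at 11.45 to 11.57 on all 6 arrays.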

How the data were processed

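RNA of 32 samples was hybridised to Affymetrix arrays, 100 ng each. Per the submitters' processing notes the authors used Affymetrix Expression Console 1.1 and RMA, and what they deposited is a log2 signal for every probe set. RMA brings the probe values of arrays to one distribution, which removes much of a global shift in RNA content. The deposited probe set values still differed somewhat between the sorted arrays, whose medians ran from 5.31 to 5.5. Their 40th percentiles were 5 to 5.14 in A and 4.92 to 5.01 in C. Array medians were 3.84 to 3.93 in the tumour models and 2.95 to 3.03 in the Myd88 experiment, so these were fitted apart. Glioma samples named in the series' design text were not analysed here. Arrays have no read depth, and their number limits the precision.

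Of 45141 HT_MG-430_PM probe sets 28898 had 1 gene symbol, 551 several and 15692 none, and of 41345 Mouse Gene 2.0 ST probe sets 23521, 1814 and 16010. Symbols were updated by Entrez identifier to the RefSeq table of GRCm38.p6, which matched 28689 and 23328. Promoter coordinates are those of RefSeq's own windows on that build and were not joined to the arrays.

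The tests were two-sided linear models (limma 3.58.1 under R 4.3.3, lmFit then eBayes), and p-values were adjusted by Benjamini-Hochberg across every gene tested, separately for each of 20 comparisons. The sorted arrays formed 1 fit of 8 groups with 8 residual degrees of freedom. The fits were tested on simulated data. Named are all members, other family genes and partners, up to 4 genes per marker list, the 3 genes most correlated with a member, and chromosomal neighbours. Members and lists were chosen with earlier results of these data known. Other settings tried were a replicate block, no filter, averaged probe sets, repeated quantile normalization, eBayes with trend, fits of the compared groups only, and leaving out each array.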

Additional observations from a re-analysis of the deposited data

How the results depend on the processing

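Counts of members called changed under these settings. Between A and C of WT recipients, 2 members became 1 with a replicate block, no filter, averaged probe sets, repeated quantile normalization, eBayes with trend, or only the compared groups in the fit. In TNFR1-/- recipients, 1 became 2 with eBayes with trend and 4 with only the compared groups, and in Myd88 cKO 0 became 1 with the replicate block and 3 with only the compared groups. With only the compared groups, TNFR1 loss gave 0 members in A, where the main count was 1, and 2 in C, where it was 0. In all these the cause was not tested. Leaving out each array in turn gave 4 to 5 members for A against C over all genotypes, 1 to 2 in WT, 1 to 3 in TNFR1-/-, 0 to 1 in Myd88 cKO and 1 to 3 in double KO. It gave 1 member for Myd88 loss in A each time, 0 to 1 for TNFR1 loss in A or in C and for the difference of Myd88 loss between A and C, 0 to 1 for double KO against WT in A, 2 to 3 for Myd88-/- and 0 to 2 between tumour models. The difference of Ms4a4b between tumour models reversed from 0.17 to -1.19 without neuroblastoma array 2, and ran from there to 0.89 over the arrays left out. Deviations of same-numbered arrays correlated at -0.25 to 0.23 in the Myd88 experiment, -0.50 to 0.37 in the sorted arrays and -0.05 to 0.22 in the tumour models. For A and C of the same genotype the values were 0.24 in WT, 0.03 in TNFR1-/-, 0.03 in Myd88 cKO and -0.20 in double KO. With 2 arrays per group this cannot tell whether same-numbered arrays of A and C came from the same tumours. The main fits did not pair arrays. Of the log2 differences recomputed, 3233 kept their side of the threshold, 46 became calls, 38 lost theirs and 1 changed sign together with a call. Among the 3233, 150 changed sign as well, all of them without a call in either fit.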
